A study of Mus musculus with 11 samples.

Results

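Chaperones fold newly made and damaged proteins, and the unfolded protein response raises the supply of chaperones when unfolded protein builds up. Described here are 48 mouse genes of these systems, chosen by symbol from a fixed list: cytosolic, mitochondrial and endoplasmic reticulum (ER) chaperones, genes of ER-associated degradation, and the transcription factors and sensors that control them. All 48 were among the 54347 genes of the deposited count table, and 47 of them were among the 14915 genes that passed the filter on low counts.

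Long-term haematopoietic stem cells (LT-HSCs) and granulocyte-monocyte progenitors (GMPs) were sorted from bone marrow for RNA sequencing. The animals were female C57BL/6NTac mice, and the labels give no genetic change, treatment or age. EMCN+ LT-HSCs (4 libraries, mice 1 to 4) and EMCN- LT-HSCs (3 libraries, mice 1, 2 and 4) were CD150+ CD48- cells of the lineage-depleted fraction with Sca-1 and c-Kit, separated by the surface sialomucin endomucin (EMCN), from 3000 to 5000 sorted cells. GMPs (4 libraries, mice 1 to 4), a more differentiated myeloid progenitor, were sorted for comparison. Another EMCN- library was removed by the submitters for poor quality, and each other library is 1 mouse.

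Totals per library were 3629234 to 11141483 estimated counts. Emcn itself was at 24.9 to 28.0 CPM in EMCN+ LT-HSCs, 12.7 to 16.2 CPM in EMCN- LT-HSCs and 0.00 to 1.36 CPM in GMPs, and its difference between EMCN+ and EMCN- LT-HSCs (0.87 ± 0.27, SE, adjusted p = 0.11) did not pass the test. The summed level of 10 LT-HSC markers was 1507 to 1795 CPM in EMCN+ LT-HSCs, 1107 to 1344 CPM in EMCN- LT-HSCs and 47.1 to 57.8 CPM in GMPs. That of 11 GMP markers was 71.2 to 79.8, 65.6 to 68.9 and 15811 to 19189 CPM in the same groups, so the libraries carried the markers of their labels. Levels in CPM are estimated counts scaled to a common total with TMM library sizes, which assume that most genes do not differ. Nuclear protein-coding genes held 60.9 to 71.6% of the counts in LT-HSC libraries and 47.5 to 53.4% in GMP libraries, and scaling by total counts in place of TMM moved the median gene by 0.78 on the log2 scale towards LT-HSCs and by 0.11 towards EMCN+ against EMCN- LT-HSCs. In sorted bulk samples, fewer cells of a type and less RNA per cell cannot be told apart.

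As background, HSP70 and HSP90 proteins with their J-protein partners work in the cytosol, and the ring-shaped chaperonin CCT folds actin and tubulin there. In the ER, the HSP70 member BiP (Hspa5), the HSP90 member GRP94 (Hsp90b1), the lectins calreticulin and calnexin, and the protein disulfide isomerases fold proteins bound for the membrane, granules or secretion. The sensors IRE1 (Ern1), ATF6 and PERK report unfolded protein in the ER, and the factors XBP1, ATF6 and ATF4 raise target genes through promoter elements such as the ER stress response element (ERSE).

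ERSE sites were found in the promoters of 7 of the 39 members with a promoter in the RefSeq table (GRCm38.p6), and are shown because these genes are among those that differ between LT-HSCs and GMPs. Capitals mark the CCAAT and CCACG ends of the motif, which lie 9 bases apart, searched on both strands of the 250 bases before the start. Only exact letters were searched for this and the other motifs. A member with no site or no match may still hold a variant or more distant element. The sites are written 5′ to 3′ on the strand of the match.
Hspa5 (chr2:34772025-34772043, plus strand): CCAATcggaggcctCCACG
Hsp90b1 (chr10:86705638-86705656, minus strand): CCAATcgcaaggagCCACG
Hsp90b1 (chr10:86705533-86705551, plus strand): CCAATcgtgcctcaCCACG
Dnajc3 (chr14:118937827-118937845, plus strand): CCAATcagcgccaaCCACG
Calr (chr8:84847075-84847093, plus strand): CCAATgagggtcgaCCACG
Canx (chr11:50325800-50325818, minus strand): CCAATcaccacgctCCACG
Pdia6 (chr12:17266491-17266509, plus strand): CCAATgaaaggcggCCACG
Creld2 (chr15:88819520-88819538, minus strand): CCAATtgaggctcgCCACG
Of 32851 promoters in the table, 37 (0.113%) held such a site, against 7 of 39 (17.9%) of the members with a promoter. These shares are no test of enrichment. The members were chosen as chaperone and unfolded protein response genes, and a member counted if any of its promoters held the site. The related ERSE-II letters, ATTGG and CCACG with 1 base between, were found in 1 member, Herpud1, and in 10 promoters (0.0304%). The heat shock element (HSE), GAA, TTC and GAA with 2 bases between each, was found in the region shared by Hspd1 and Hspe1, which face away from each other, and in 153 promoters (0.466%). The letters TGACGTGG (UPRE) and TGATGNAAT (CARE) were in none of the 39 and in 185 (0.563%) and 268 (0.816%) of all promoters. The windows of Hspa5, Calr and Hspe1 show where the elements lie, in capitals, in the 250 bases before each RefSeq start, on the strand of the gene. RefSeq starts can differ from the GENCODE gene spans printed below. The Hspa5 site lies inside the GENCODE span of Hspa5, and the heat shock elements lie inside that of Hspd1. In the Hspe1 window the capitals cover 2 overlapping heat shock elements, 1 on each strand.
Hspa5 (chr2:34771840-34772089, plus strand): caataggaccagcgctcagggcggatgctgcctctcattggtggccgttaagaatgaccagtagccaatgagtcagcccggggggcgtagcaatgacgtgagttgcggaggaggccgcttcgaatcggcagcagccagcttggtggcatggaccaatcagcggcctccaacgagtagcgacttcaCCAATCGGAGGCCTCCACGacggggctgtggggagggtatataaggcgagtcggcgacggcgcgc
Calr (chr8:84846932-84847181, minus strand): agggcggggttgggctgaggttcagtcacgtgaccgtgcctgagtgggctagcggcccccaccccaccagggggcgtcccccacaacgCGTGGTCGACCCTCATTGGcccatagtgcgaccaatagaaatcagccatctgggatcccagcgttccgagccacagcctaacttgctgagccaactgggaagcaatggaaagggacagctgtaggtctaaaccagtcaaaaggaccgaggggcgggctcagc
Hspe1 (chr1:55087898-55088147, plus strand): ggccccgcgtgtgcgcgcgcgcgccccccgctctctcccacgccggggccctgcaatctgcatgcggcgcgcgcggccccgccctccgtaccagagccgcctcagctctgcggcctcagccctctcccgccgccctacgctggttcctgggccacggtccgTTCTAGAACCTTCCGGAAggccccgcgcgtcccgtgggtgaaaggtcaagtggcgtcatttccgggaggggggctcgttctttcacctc

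LT-HSCs differed from GMPs in most of these genes. Of the 47 tested, 34 were lower and 3 higher in LT-HSCs (adjusted p under 0.05), where over all genes 29.9% were lower and 32.5% higher, and over genes with a mean of at least 10 CPM 37.4% and 33.5%. Those shares are the background for each count below of genes called with TMM between LT-HSCs and GMPs. The median log2 difference of the 47 was -0.58, against 0.03 for all genes. With total-count scaling the split was 16 lower and 19 higher, and the median of all genes was 0.81 there. With either scaling 40 of the 47 members were below the median of all genes. The shares of all genes called with total-count scaling are not given here. Every LT-HSC library was below every GMP library for 30 members (23.1% of all genes) and above it for 3 (25.0%). Taken alone, EMCN+ LT-HSCs had 33 members lower and 3 higher than GMPs (29.4% and 31.9% of all genes), and EMCN- LT-HSCs 30 lower and 5 higher (24.4% and 28.3%). These comparisons share the GMP libraries.

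**Figure D1:**
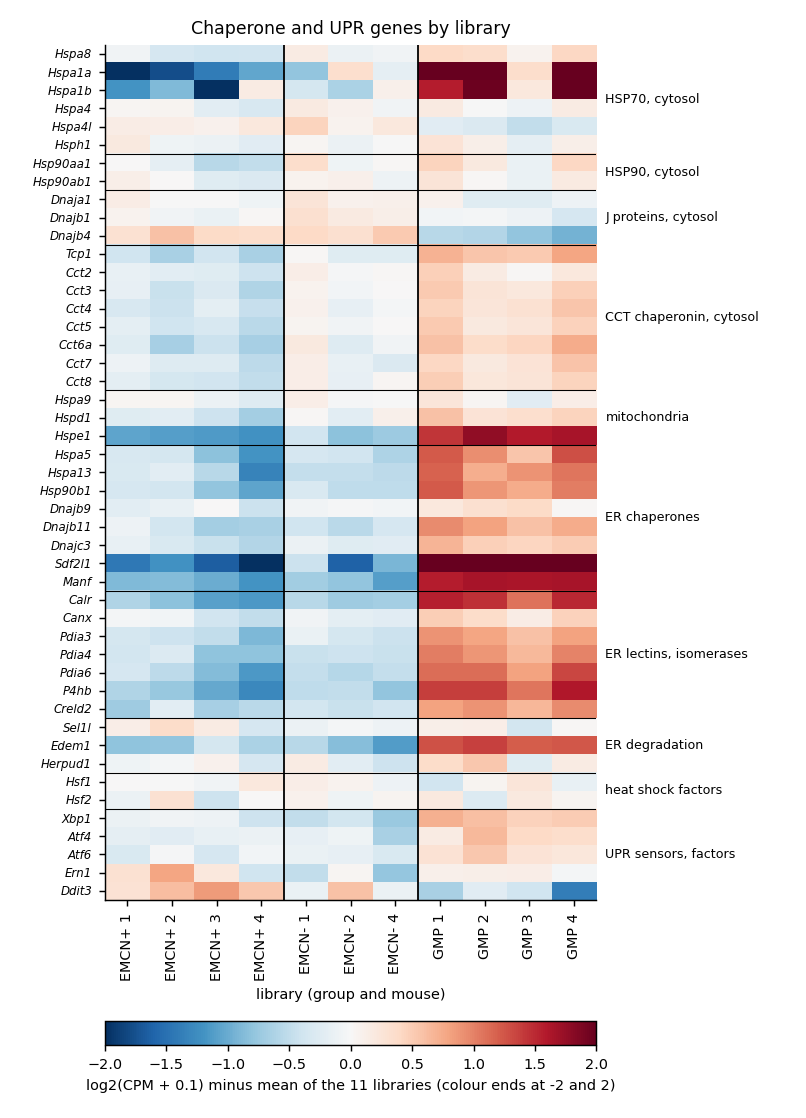
Levels of the 47 tested genes in each of the 11 libraries, as log2(CPM + 0.1) minus the mean of the libraries, with genes in rows grouped by role and libraries in columns from EMCN+ LT-HSCs to EMCN- LT-HSCs and GMPs. For 14 of the 15 ER chaperones, lectins and isomerases, all but Dnajb9, the 7 LT-HSC columns are blue (below the mean) and the 4 GMP columns red (above it).

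The ER folding genes differed the most as a group. All 15 ER chaperones, lectins and isomerases were lower in LT-HSCs, with a median log2 difference of -1.48, and with total-count scaling 7 of 8 chaperones and 6 of 7 lectins and isomerases were still negative, the exceptions being Dnajb9 (0.42) and Canx (0.21). Those are counts of signs and not of calls, and the medians with total-count scaling were -0.71 for the chaperones and -0.60 for the lectins and isomerases. Their summed level was 2531 ± 467 CPM in EMCN+ LT-HSCs (SD, n = 4), 2872 ± 177 CPM in EMCN- LT-HSCs (n = 3) and 8249 ± 1033 CPM in GMPs (n = 4). Replicates below run over mice 1 to 4 (1, 2 and 4 for EMCN-).

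Hspa5 was at 304, 299, 216 and 165 CPM in EMCN+ LT-HSCs, 302, 291 and 248 CPM in EMCN- LT-HSCs and 888, 723, 561 and 932 CPM in GMPs. Hspa5, on chromosome 2 (GRCm38 chr2:34771970-34777547), encodes BiP, the main ER chaperone and the partner that holds the sensors inactive. No LT-HSC library reached the lowest GMP library, and the log2 difference was -1.57 ± 0.18 (SE, adjusted p = 1.13e-05). Hsp90b1 encodes GRP94, which folds receptors and integrins. Hsp90b1 measured 409, 400.5, 301 and 249 CPM in EMCN+ LT-HSCs, 418, 364 and 365 CPM in EMCN- LT-HSCs and 1209.6, 957, 866 and 1054 CPM in GMPs. The groups did not overlap (-1.51 ± 0.12, SE, adjusted p = 9.45e-09). EMCN+ replicate 4 had the lowest level of both genes. The largest fall was that of Sdf2l1, an ER stress-induced partner of BiP and its J proteins. Sdf2l1 had 6.22, 7.30, 5.33 and 3.12 CPM in EMCN+ LT-HSCs, 12.5, 5.48 and 8.90 CPM in EMCN- LT-HSCs and 94.6, 82.6, 82.7 and 105 CPM in GMPs. It was 0.0766 times the GMP level (-3.71 ± 0.18, SE, adjusted p = 5.31e-11). Manf encodes a small ER-resident protein that is secreted under stress. Manf was at 37.6, 38.0, 34.5 and 30.2 CPM in EMCN+ LT-HSCs, 42.5, 40.1 and 32.1 CPM in EMCN- LT-HSCs and 206, 218, 214 and 217 CPM in GMPs. Its GMP libraries were close together, and the log2 difference was -2.54 ± 0.09 (SE, adjusted p = 2.46e-15). Hspa13, Dnajb11, Dnajc3 and Dnajb9, an HSP70 and 3 ER J proteins, had log2 differences of -1.48, -1.20, -0.81 and -0.36.

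Calreticulin binds glycoproteins and calcium in the ER lumen. Calr measured 664, 574, 474 and 457 CPM in EMCN+ LT-HSCs, 687, 618 and 634 CPM in EMCN- LT-HSCs and 2975, 2797, 2142 and 2876 CPM in GMPs. Calr (chr8:84841850-84846934, minus strand) had a log2 difference of -2.20 ± 0.11 (SE, adjusted p = 3.06e-13). Its membrane-bound relative calnexin (Canx) fell less, by 0.57, so that the Calr to Canx ratio was 1.08 ± 0.0637 in EMCN+ LT-HSCs (SD, n = 4), 1.23 ± 0.0286 in EMCN- LT-HSCs (n = 3) and 3.53 ± 0.175 in GMPs (n = 4), which does not depend on the library scaling. The isomerases make and rearrange disulfide bonds. P4hb, the classic member, had 263, 237, 197 and 164 CPM in EMCN+ LT-HSCs, 283, 284 and 232 CPM in EMCN- LT-HSCs and 1049, 1048, 843 and 1216 CPM in GMPs. That is a log2 difference of -2.14 ± 0.12 (SE, adjusted p = 2e-11), with no overlap between LT-HSC and GMP libraries. Pdia3 had 273, 260.4, 248 and 187 CPM in EMCN+ LT-HSCs, 317, 273 and 259 CPM in EMCN- LT-HSCs and 653, 599.5, 524 and 612 CPM in GMPs. Pdia3, which works with calreticulin on glycoproteins, differed by -1.20 ± 0.10 (SE, adjusted p = 1.45e-09). Pdia4 was at 161, 170.1, 119 and 118 CPM in EMCN+ LT-HSCs, 152, 156 and 152 CPM in EMCN- LT-HSCs and 420.2, 380.4, 323 and 409 CPM in GMPs. Pdia4 differed by -1.38 ± 0.11 (SE, adjusted p = 3.32e-10). Pdia6 and Creld2 had log2 differences of -1.71 and -1.29. The 7 members with an ERSE site, Calr, Canx, Creld2, Dnajc3, Hsp90b1, Hspa5 and Pdia6, were all lower, with a median of -1.51, and of the 31 tested members with a promoter and no site 21 were lower, with a median of -0.57. All 7 are ER folding genes, and the 6 ER folding genes with a promoter and no site (Dnajb11, Dnajb9, P4hb, Pdia3, Pdia4 and Sdf2l1) were all lower too, with a median of -1.29.

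**Figure D2:**
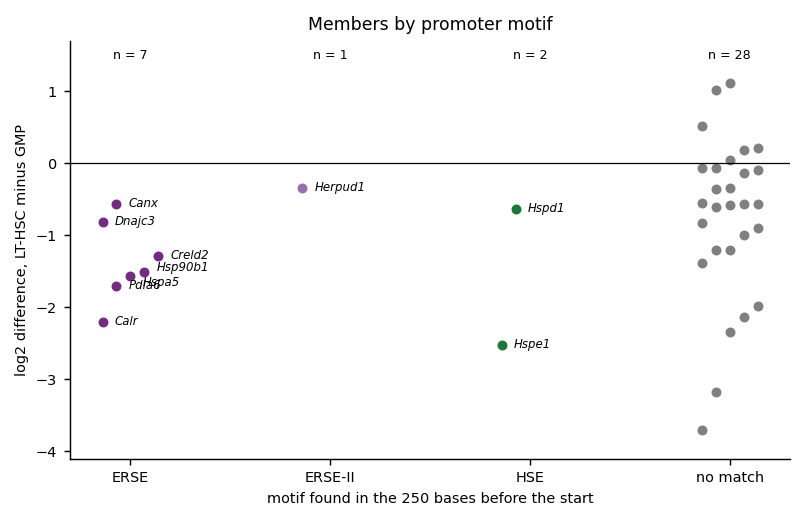
The log2 difference between LT-HSCs and GMPs for the 38 tested members with a promoter in the table, by the motif found in the 250 bases before the start. The 7 genes with an ERSE lie between -2.20 and -0.57, and the genes with no exact match between -3.71 and 1.12.

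Other ER genes moved with them. Of 29 further genes of ER folding and translocation, 23 were lower and 3 higher, with a median log2 difference of -1.28 (17 lower, 8 higher and a median of -0.50 with total-count scaling). Sec61b, a subunit of the translocation channel, had a log2 difference of -3.42 ± 0.11, Ssr4, a subunit of the translocon-associated complex, -2.97 ± 0.10, and Ssr2, of the same complex, -2.06 ± 0.10, and with total-count scaling these were -2.63, -2.18 and -1.27. In the same libraries the summed level of 8 mature neutrophil markers was 1.46 to 2.92 CPM in EMCN+ LT-HSCs, 0.762 to 2.74 CPM in EMCN- LT-HSCs and 120.5 to 534 CPM in GMPs. That of 9 macrophage and monocyte markers was 9.46 to 16.0, 14.8 to 18.6 and 470.2 to 586 CPM, and that of the 7 of 9 B and plasma cell markers in the table was 11.1 to 16.2, 8.90 to 14.8 and 20.1 to 25.0 CPM. None of these markers was at 0 in all 11 libraries, and their part in the result was not tested.

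In ER-associated degradation, Edem1, which directs misfolded glycoproteins to disposal, had a log2 difference of -1.98 ± 0.11, and Herpud1, a membrane scaffold of the degradation complex, one of -0.34 ± 0.14 (SE, adjusted p = 0.039). Herpud1 measured 33.9, 35.1, 38.4 and 28.6 CPM in EMCN+ LT-HSCs, 40.7, 31.1 and 27.2 CPM in EMCN- LT-HSCs and 46.5, 52.8, 30.7 and 40.6 CPM in GMPs. Its LT-HSC libraries overlapped the lowest GMP library, and the direction turned to 0.45 with total-count scaling. Sel1l, the adaptor of the ubiquitin ligase, was not called (0.04 ± 0.12, SE, adjusted p = 0.781). Sel1l had 85.2, 101, 87.4 and 61.9 CPM in EMCN+ LT-HSCs, 72.0, 75.9 and 72.8 CPM in EMCN- LT-HSCs and 84.4, 84.9, 60.4 and 79.0 CPM in GMPs. Of 16 further genes of this process tested, 10 were lower and 1 higher, with a median of -0.33, against 1 lower and 11 higher with a median of 0.45 under total-count scaling. Selenos had a log2 difference of -2.02 ± 0.12, Edem3 of -0.87 ± 0.10 and Edem2 of -0.82 ± 0.10, and with total-count scaling these were -1.23, -0.08 and -0.03.

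**Figure D3:**
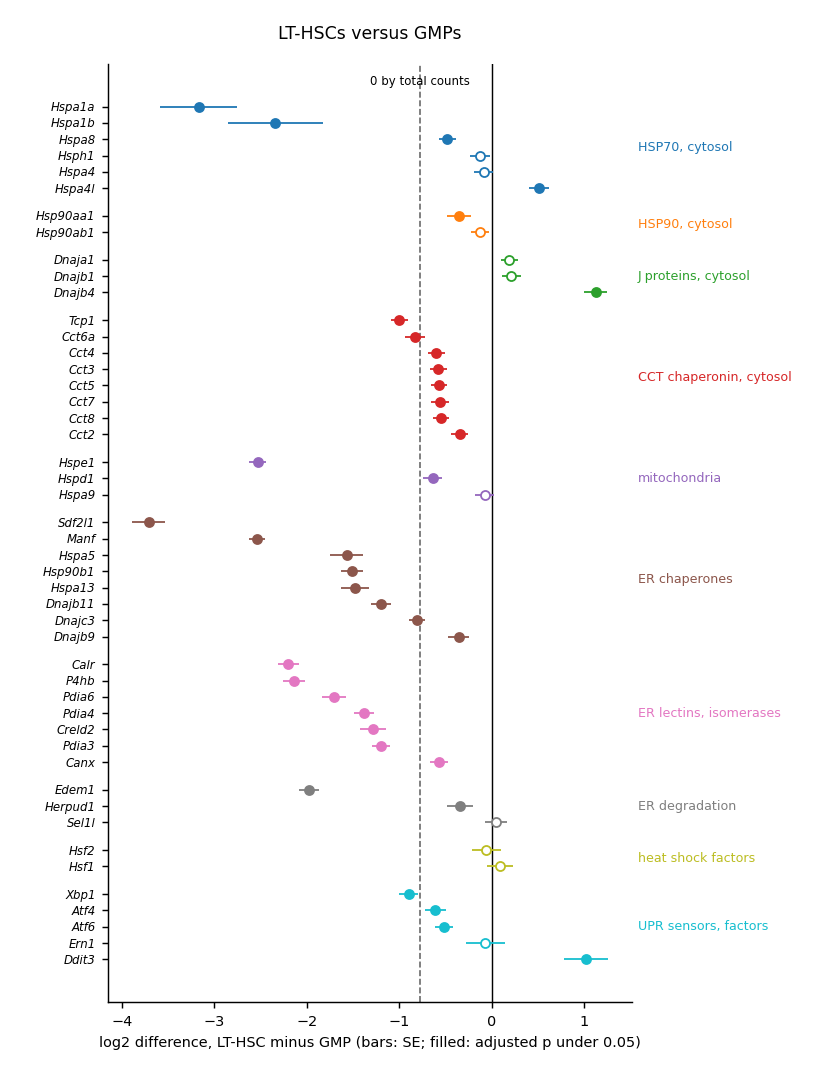
The log2 difference between LT-HSCs and GMPs with its SE for each tested gene, grouped by role, with filled points for adjusted p under 0.05. The dashed line at -0.78 marks where a difference would be 0 with total-count scaling: most ER genes lie to its left, and most cytosolic genes between it and 0.

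The cytosolic chaperones differed less. Of 19 tested, 12 were lower and 2 higher (29.9% and 32.5% of all genes), with a median log2 difference of -0.48. The direction of the group depends on the scaling. With total-count scaling the medians were 0.48 for HSP70, 0.54 for HSP90, 0.99 for J proteins and 0.21 for CCT. Hspa8, the constitutive HSP70, was among the most abundant members. Hspa8 was at 1723, 1433, 1373 and 1388 CPM in EMCN+ LT-HSCs, 2041, 1667 and 1736 CPM in EMCN- LT-HSCs and 2394, 2317, 1897 and 2418 CPM in GMPs. The difference was -0.48 ± 0.09 (SE, adjusted p = 0.000135), and 0.30 with total-count scaling. The stress-inducible HSP70 genes Hspa1a and Hspa1b are near-identical copies on chromosome 17, so the assignment of reads between them is uncertain. Hspa1a measured 0.988, 1.95, 2.55 and 3.31 CPM in EMCN+ LT-HSCs, 3.96, 8.70 and 6.09 CPM in EMCN- LT-HSCs and 29.1, 41.0, 8.86 and 41.3 CPM in GMPs. GMP replicate 3 was far below the other GMP libraries, and the log2 difference was -3.17 ± 0.42 (SE, adjusted p = 7.12e-05). Hspa1b had 4.64, 5.77, 1.11 and 12.1 CPM in EMCN+ LT-HSCs, 8.39, 6.92 and 11.5 CPM in EMCN- LT-HSCs and 32.0, 42.3, 12.5 and 50.1 CPM in GMPs. The difference of Hspa1b was -2.34 ± 0.51 (SE, adjusted p = 0.00344). Hspa4l, a nucleotide exchange relative of HSP70, was higher. Hspa4l was at 43.7, 43.2, 41.6 and 45.2 CPM in EMCN+ LT-HSCs, 53.2, 41.1 and 45.4 CPM in EMCN- LT-HSCs and 33.7, 32.2, 27.9 and 31.8 CPM in GMPs. Every LT-HSC library was above every GMP library (0.51 ± 0.11, SE, adjusted p = 0.000264), but the difference was 0.06 after correction for the length and GC content of principal transcripts. Hspa4 and Hsph1, which have the same role, were not called (-0.09 and -0.13).

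Per kilobase of transcript Hsp90ab1 had the highest mean level of the cytosolic members in all 3 groups. Hsp90ab1 measured 2746, 2543, 2124 and 2071 CPM in EMCN+ LT-HSCs, 2663, 2702 and 2363 CPM in EMCN- LT-HSCs and 3009.5, 2572, 2299 and 2872 CPM in GMPs. Hsp90ab1, the constitutive form, was not called (-0.13 ± 0.10, SE, adjusted p = 0.264). Hsp90aa1 had 1091, 954, 736 and 766 CPM in EMCN+ LT-HSCs, 1386, 1024 and 1102 CPM in EMCN- LT-HSCs and 1477, 1233, 989 and 1439.5 CPM in GMPs. Hsp90aa1, the inducible form, differed by -0.36 ± 0.13 (SE, adjusted p = 0.025), with overlapping libraries, and by 0.42 with total-count scaling. Hspb1, a small heat shock protein, had 5 counts in EMCN+ replicate 1, 2 counts in EMCN- replicate 1 and 0 in the other 9 libraries, and was not tested. Among cytosolic J proteins, which hand clients to HSP70, Dnajb4 was higher. Dnajb4 was at 37.7, 46.2, 39.9 and 39.1 CPM in EMCN+ LT-HSCs, 40.4, 38.2 and 43.8 CPM in EMCN- LT-HSCs and 20.9, 20.4, 17.7 and 15.8 CPM in GMPs. The groups did not overlap (1.12 ± 0.12, SE, adjusted p = 5.11e-08). Dnajb1 measured 47.8, 43.2, 41.2 and 46.0 CPM in EMCN+ LT-HSCs, 56.7, 51.5 and 49.2 CPM in EMCN- LT-HSCs and 43.5, 44.3, 42.3 and 35.8 CPM in GMPs. Dnajb1, the partner induced by heat, was not called (0.21 ± 0.10, SE, adjusted p = 0.0785), nor was Dnaja1 (0.19, adjusted p = 0.0642), which passed with mouse as a block (adjusted p = 0.0371). Of 20 further HSP70 and HSP90 co-chaperones 10 were lower and 5 higher, with a median of -0.24, the smallest p values being those of Ptges3 (-0.84 ± 0.08), Dnajb6 (-0.75 ± 0.09) and Fkbp4 (-0.72 ± 0.11). With total-count scaling none of the 20 was lower and 13 were higher, with a median of 0.55, and these 3 genes were at -0.06, 0.03 and 0.06.

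All 8 genes of the chaperonin CCT were lower in LT-HSCs, with a median log2 difference of -0.57, whereas with total-count scaling 6 of the 8 were positive and Tcp1 (-0.22) and Cct6a (-0.05) negative. Tcp1 encodes its first subunit. Tcp1 had 367, 310.1, 372 and 307 CPM in EMCN+ LT-HSCs, 491, 409 and 407 CPM in EMCN- LT-HSCs and 782, 713, 692 and 833 CPM in GMPs. Its LT-HSC libraries were all below its GMP libraries, at 0.501 times the GMP level (adjusted p = 4.66e-09). Of 8 genes of prefoldin, which passes chains to CCT, and CCT cofactors, 6 were lower and none higher, with a median of -0.96. Pfdn4 had a log2 difference of -2.51 ± 0.14, Pfdn5 of -1.15 ± 0.09 and Vbp1 of -0.98 ± 0.12. With total-count scaling 2 of the 8 were lower and 2 higher, with a median of -0.17, and Pfdn4, Pfdn5 and Vbp1 were at -1.73, -0.36 and -0.20. After the corrections for length and GC content the median was -0.45 by all coding and -0.42 by principal transcripts, with Pfdn5 at -0.38 and -0.67 and Vbp1 at -0.62 and -0.65.

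In mitochondria, the pair Hspd1 and Hspe1 encodes HSP60 and its lid HSP10. The genes overlap by 112 bases at their starts (chr1:55088132-55088243) on opposite strands, and whether the counting used the strand is not given in the sources used here. Hspe1 was at 63.0, 60.9, 59.6 and 56.7 CPM in EMCN+ LT-HSCs, 101, 74.2 and 79.4 CPM in EMCN- LT-HSCs and 355, 452, 396 and 411 CPM in GMPs. Hspe1 was 0.173 times the GMP level (-2.53 ± 0.09, SE, adjusted p = 4.15e-15). Hspd1 measured 155, 159, 138 and 115 CPM in EMCN+ LT-HSCs, 186, 158 and 196 CPM in EMCN- LT-HSCs and 275, 222, 232 and 248 CPM in GMPs. Hspd1 fell by 0.64 (SE 0.10, adjusted p = 1.06e-05), and was at 0.15 with total-count scaling. The Hspe1 to Hspd1 ratio was 0.429 ± 0.0477 in EMCN+ LT-HSCs (SD, n = 4), 0.473 ± 0.0693 in EMCN- LT-HSCs (n = 3) and 1.67 ± 0.306 in GMPs (n = 4). The 6 pseudogenes named after Hspe1 held 13 counts against 12783 for the gene. Short transcripts were lower in LT-HSCs in general: over protein-coding genes the median log2 difference was -0.64 in the shortest of 5 equal length classes and 0.45 in the longest by principal transcripts (-0.41 and 0.42 by all coding transcripts). After correction for length and GC content Hspe1 was at -1.76 by principal and -2.09 by all coding transcripts. Hspa9 had 287, 286, 258 and 234 CPM in EMCN+ LT-HSCs, 307, 276 and 278 CPM in EMCN- LT-HSCs and 331, 287, 239 and 307 CPM in GMPs. Hspa9, the mitochondrial HSP70, was not called (-0.08 ± 0.10, SE, adjusted p = 0.488). Of 10 further mitochondrial chaperones and proteases 8 were lower and 1 higher, among them Grpel1 (-2.25 ± 0.10), Htra2 (-1.42 ± 0.13) and Trap1 (-0.61 ± 0.09). With total-count scaling 2 of the 10 were lower and 6 higher, with Grpel1 at -1.46, Htra2 at -0.64 and Trap1 at 0.17.

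**Figure D4:**
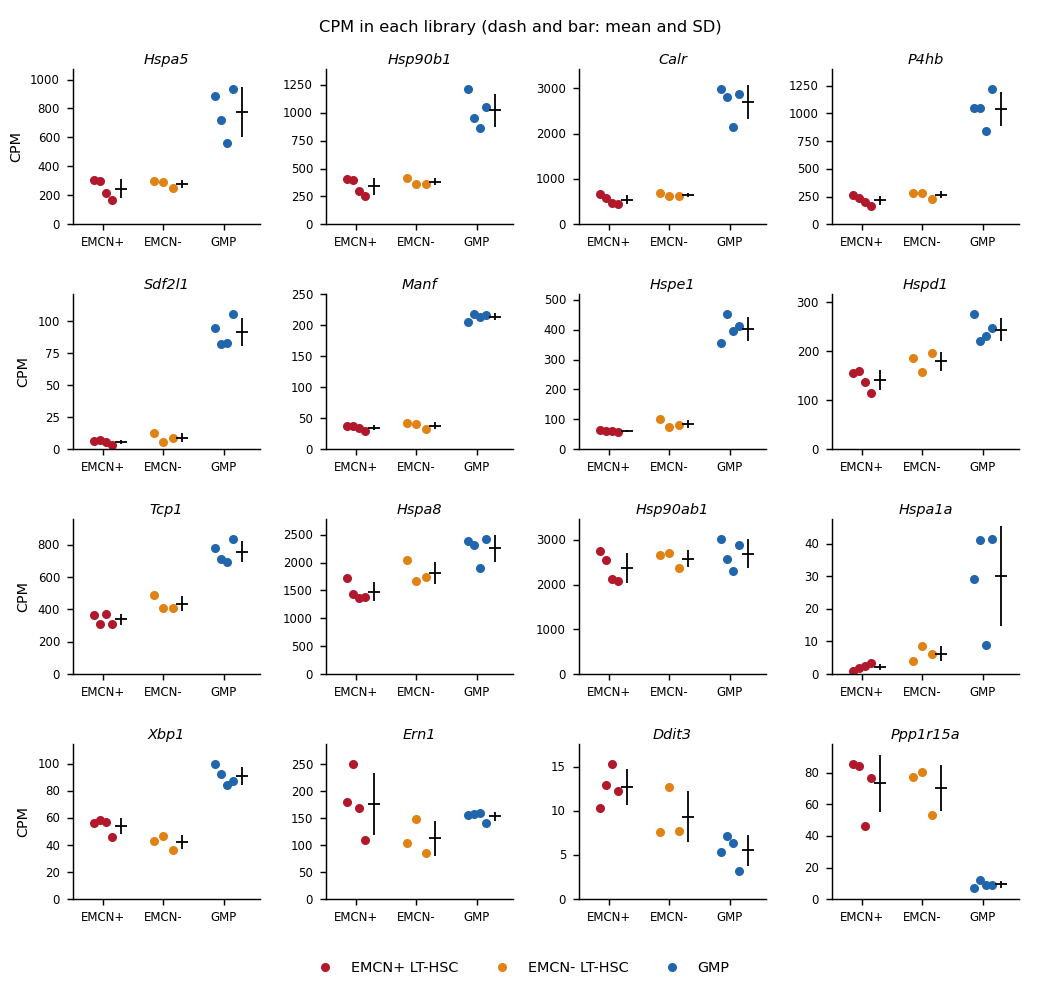
CPM of 16 genes in each library, with the mean and SD of EMCN+ LT-HSCs (n = 4), EMCN- LT-HSCs (n = 3) and GMPs (n = 4) beside the points. The ER genes, Hspe1 and Tcp1 are lower in every LT-HSC library than in any GMP library, while Ddit3 and Ppp1r15a are higher.

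The regulators did not move as one. Xbp1 was at 56.3, 58.3, 56.9 and 45.6 CPM in EMCN+ LT-HSCs, 43.2, 47.0 and 36.3 CPM in EMCN- LT-HSCs and 99.8, 92.8, 84.3 and 87.0 CPM in GMPs. Xbp1, the factor activated by IRE1 splicing, fell by 0.90 (SE 0.10, adjusted p = 7.71e-08). These are counts of the gene, which do not separate the spliced form. With total-count scaling Xbp1 stayed negative, but the median gene moved by 0.78 towards LT-HSCs there, close to the size of the fall of Xbp1. Atf4 measured 52.0, 50.2, 52.8 and 54.1 CPM in EMCN+ LT-HSCs, 52.6, 55.6 and 37.5 CPM in EMCN- LT-HSCs and 66.1, 92.0, 77.2 and 74.7 CPM in GMPs. Atf6 had 35.3, 42.8, 34.3 and 41.9 CPM in EMCN+ LT-HSCs, 39.5, 38.8 and 35.1 CPM in EMCN- LT-HSCs and 53.2, 63.2, 52.7 and 50.7 CPM in GMPs. Atf4 and Atf6 had log2 differences of -0.61 ± 0.11 (SE, adjusted p = 5.74e-05) and -0.52 ± 0.10 (SE, adjusted p = 0.000165), and 0.17 and 0.26 with total-count scaling. Ern1 was at 179, 250.1, 168 and 109 CPM in EMCN+ LT-HSCs, 103, 149 and 85.0 CPM in EMCN- LT-HSCs and 156, 158, 159.5 and 141 CPM in GMPs. Ern1, which encodes IRE1, was not called (-0.07 ± 0.21, SE, adjusted p = 0.795). Ddit3 encodes CHOP, a factor downstream of ATF4 in prolonged stress. Ddit3 measured 10.3, 12.9, 15.3 and 12.3 CPM in EMCN+ LT-HSCs, 7.62, 12.7 and 7.73 CPM in EMCN- LT-HSCs and 5.35, 7.17, 6.36 and 3.17 CPM in GMPs. Every LT-HSC library was above every GMP library (1.02 ± 0.24, SE, adjusted p = 0.000957). The heat shock factors Hsf1 and Hsf2, which drive the cytosolic response, were not called. Hsf1 had 21.4, 21.1, 20.3 and 24.5 CPM in EMCN+ LT-HSCs, 23.2, 22.2 and 19.7 CPM in EMCN- LT-HSCs and 16.2, 22.0, 25.0 and 19.2 CPM in GMPs. Hsf2 was at 16.2, 21.8, 13.2 and 17.7 CPM in EMCN+ LT-HSCs, 18.8, 16.6 and 18.3 CPM in EMCN- LT-HSCs and 20.3, 14.5, 20.2 and 18.3 CPM in GMPs. Their log2 differences were 0.09 ± 0.14 (SE, adjusted p = 0.605) and -0.06 ± 0.16 (SE, adjusted p = 0.765).

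Of 22 tested genes of the integrated stress response and the PERK branch, 7 were higher and 8 lower in LT-HSCs, with a median of -0.21 (14 higher, 4 lower and a median of 0.58 with total-count scaling). Over all genes 32.5% were higher and 29.9% lower, and over genes with a mean of at least 10 CPM 33.5% and 37.4%. The counts of this list were near those shares. Eif2s1, the translation factor that the pathway's kinases modify, had a log2 difference of -1.61 ± 0.11, and the transcription factor gene Cebpb one of -1.79 ± 0.14. Trib3, a target of ATF4 and CHOP, had 7.80, 8.41, 9.22 and 10.3 CPM in EMCN+ LT-HSCs, 2.74, 4.67 and 4.22 CPM in EMCN- LT-HSCs, and 0.157, 0.326, 0.00 and 0.186 CPM in GMPs, where it had 1, 2, 0 and 1 counts. The other 6 higher genes, named after their values were seen, were Ppp1r15a, which encodes the phosphatase subunit that ends the response, Nupr1, Vldlr, Ddit4, Sesn2 and Eif2ak2. After correction for length and GC content 8 of the 22 were higher and 10 lower by all coding transcripts, and 6 and 9 by principal transcripts. Lower under both were, among others, Mthfd2 (-1.34 and -1.47), Psat1 (-1.23 and -1.15), Shmt2 (-0.92 and -0.81) and Ppp1r15b (-0.94 and -0.89). Sesn2 was called under neither (edgeR adjusted p = 0.086 and 0.0681). Ppp1r15a had 85.5, 84.3, 46.6 and 76.9 CPM in EMCN+ LT-HSCs, 77.2, 80.5 and 53.4 CPM in EMCN- LT-HSCs and 7.24, 12.4, 8.63 and 9.13 CPM in GMPs (log2 difference 2.95 ± 0.22). Immediate early genes, which respond to cell handling among other stimuli, were higher in the same libraries for 10 of 16 tested and lower for 2, with a median of 0.98. Egr1 was at 30.4 to 61.0 CPM in EMCN+ LT-HSCs, 38.6 to 42.2 CPM in EMCN- LT-HSCs and 0.157 to 1.63 CPM in GMPs. Their part in the result was not tested.

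Between EMCN+ and EMCN- LT-HSCs the differences were small. Of the 47 genes 1 was lower and none higher in EMCN+ LT-HSCs by edgeR, where 1.19% and 0.771% of all genes were (1.83% and 0.882% of genes with a mean of at least 10 CPM), and 36 of 47 had a negative log2 difference, with a median of -0.16 against 0.00 for all genes. At an unadjusted p under 0.05 edgeR had 13 lower and 2 higher, and DESeq2 gave 3 lower and none higher after adjustment. For both of these counts the shares of all genes by direction are not given here, so neither is read as a result about the members. Every EMCN+ library was below every EMCN- library for 9 members (7.03% of all genes) and above for none (7.19%). Within mice 1, 2 and 4, 21 members were lower in 3 of 3 pairs (20.2%) and 3 higher (20.4%).

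The gene called was Hspe1. With the values given above, every EMCN+ library was below every EMCN- library, and the log2 difference was -0.50 ± 0.12 (SE, adjusted p = 0.0323). The adjusted p ranged from 0.0531 to 0.31 when EMCN+ replicate 2, 3 or 4, or EMCN- replicate 1 or 4, was left out, and was 0.209 with total-count scaling and 0.132 and 0.273 with the 2 corrections for length and GC content, so the call does not hold under these settings. In the wider lists, Pfdn4 (-0.79 ± 0.19), Grpel1 (-0.51 ± 0.13) and Psat1 (-0.66 ± 0.14), a serine synthesis gene, were also lower in EMCN+ LT-HSCs. They were 1 of 8 prefoldin and CCT cofactor genes, 1 of 10 mitochondrial genes and 1 of 22 stress response genes. The other wider lists had 0 calls, and 1.19% of all genes were lower. Calls of these genes under other settings are not given here.

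The CCT genes all leaned the same way without passing the test. Their log2 differences were -0.46 to -0.18, and all 8 were lower in EMCN+ LT-HSCs in 3 of 3 pairs (20.2% of all genes). For 6 of the 8 no EMCN+ library reached an EMCN- library (7.03% of all genes). Both counts draw on the same LT-HSC libraries. Total-count scaling moved the median gene by only 0.11 here, so it could not turn the sign of these 8. Their summed level was 1409 ± 135 CPM in EMCN+ LT-HSCs (SD, n = 4) and 1788 ± 158 CPM in EMCN- LT-HSCs (n = 3). Fitting only the 6 paired libraries, with a term for the mouse, 8 members were lower (3.93% of all genes), namely Tcp1, Cct3, Cct4, Cct5, Cct6a, Cct8, Hspe1 and Hspa1a, and 1 higher (2.83%). With the block over all 11 libraries Cct6a and Hspe1 were lower (1.60% of all genes) and 1 gene was higher (0.905%). That fit of pairs gave Tcp1 a log2 difference of -0.42 ± 0.09 (adjusted p = 0.00869) and Cct6a one of -0.49 ± 0.09 (adjusted p = 0.00307). Under both corrections for length and GC content with the block, no member was lower. In the same libraries the summed level of 7 megakaryocyte and platelet markers was 26.2 to 39.4 CPM in EMCN+ LT-HSCs and 65.7 to 103.7 CPM in EMCN- LT-HSCs. Of these, Pf4 and Itga2b were called lower in EMCN+ LT-HSCs (-2.38 ± 0.38 and -1.53 ± 0.26, SE), Ppbp was at 0.00 to 0.626 CPM in EMCN+ and 0.234 to 0.483 CPM in EMCN- LT-HSCs, and no marker was at 0 in every library. Cd48 of the GMP list and Car1 of the erythroid list were also called lower, while the summed levels of those lists were 71.2 to 79.8 and 16.4 to 20.5 CPM in EMCN+ LT-HSCs, against 65.6 to 68.9 and 11.6 to 13.4 CPM in EMCN- LT-HSCs. The sums were mostly Gstm1 (means of 51.8 and 37.4 CPM, called higher) and Prtn3 (22.1 and 19.6 CPM) in the GMP list, and Hbb-bt (14.7 and 5.80 CPM) in the erythroid list. Mpo, Elane, Ctsg, Ms4a3, Fcgr3, Igsf6 and Cst7 of the GMP list had negative differences and Cebpe a positive one, none of them called. The part of these markers in the differences of the members was not tested.

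The gene higher in both blocked fits was Ern1. It was higher in EMCN+ LT-HSCs in 3 of 3 pairs, by 0.79, 0.75 and 0.36, and its difference was 0.66 ± 0.26 (SE, adjusted p = 0.289) without the block, 0.64 ± 0.14 (adjusted p = 0.0302) with it, and 0.64 ± 0.10 (adjusted p = 0.00101) in the pairs. The groups overlapped, since EMCN+ replicate 4 was below EMCN- replicate 2. Xbp1, whose transcript IRE1 splices, was higher in 3 of 3 pairs, by 0.38, 0.31 and 0.33, and was not called without the block (0.37 ± 0.12, SE, adjusted p = 0.158) or with it (adjusted p = 0.0939). With the block and the correction over all coding transcripts both Ern1 and Xbp1 were called higher, and with the correction over principal transcripts neither was. The ER folding genes, of which 14 of 15 were negative with a median of -0.17, were not called, and neither were the heat shock factors.

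**Figure D5:**
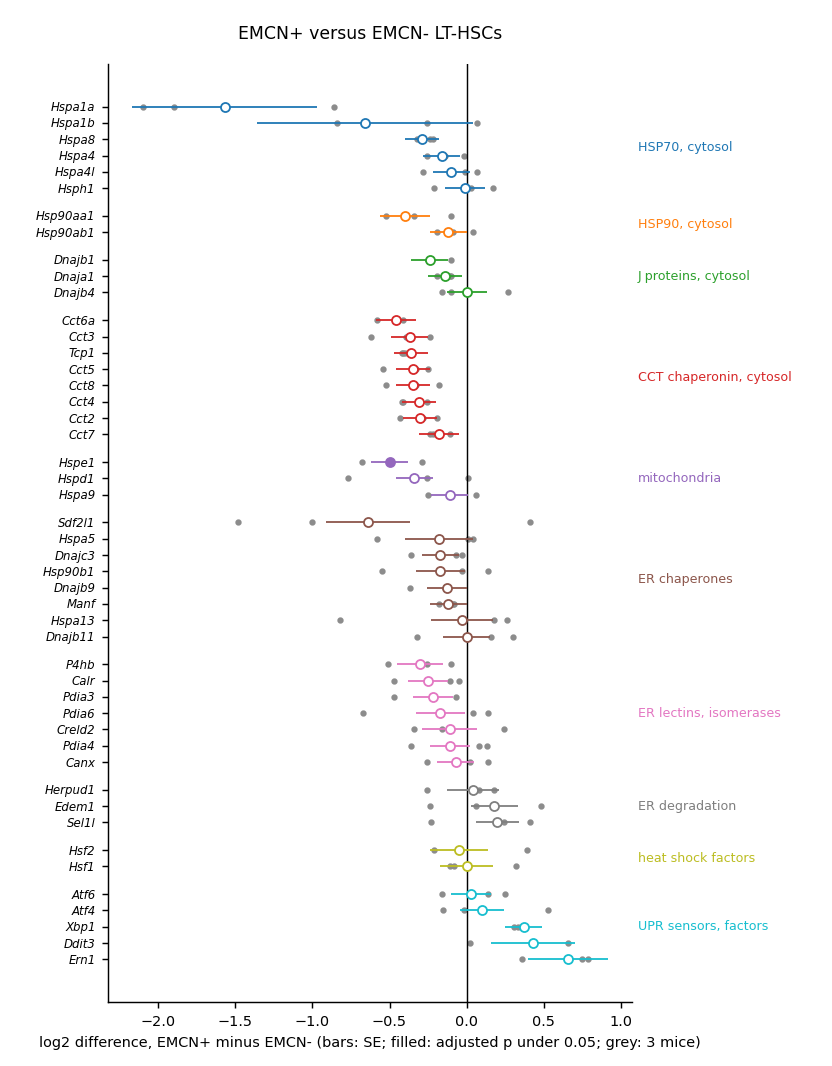
The log2 difference between EMCN+ and EMCN- LT-HSCs with its SE for each tested gene, grouped by role, with the 3 within-mouse differences in grey and a filled point for adjusted p under 0.05. All grey points of the 8 CCT genes lie left of 0, and those of Ern1 and Xbp1 right of 0.

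Per kilobase of principal transcript, the highest mean levels were those of Hsp90ab1 in LT-HSCs, with 941 CPM per kb in EMCN+ and 1022 CPM per kb in EMCN- cells, against 1067 CPM per kb in GMPs. In GMPs Calr was highest with 1235 CPM per kb, and it had rank 4 in EMCN+ and rank 5 in EMCN- LT-HSCs. By the median of all coding transcripts, which for Hsp90ab1 is 614 bases against 2520 for the principal one, Hsp90ab1 was highest in all 3 groups and Calr had rank 3 in GMPs.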

How the data were processed

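The deposited table holds estimated counts per gene, for which the submitters' processing notes name cutadapt and Salmon. Versions, build and the step from transcripts to genes are not given in the sources used here. The library kit was the SMARTer stranded total RNA-Seq Pico kit, per the labels' protocols. These deposited estimated counts, rounded to integers, were fitted together for all 11 libraries with edgeR 4.0.16 in R 4.3.3 (TMM, filterByExpr at a minimum count of 10, robust quasi-likelihood test), with Benjamini-Hochberg adjustment over 14915 genes at 0.05. The filter kept 99.7% of the counts. The LT-HSC contrast weighted its 7 libraries equally, and SE is the size of the log2 difference over the square root of F. A count of 0 allows up to 3 counts, 0.209 to 0.703 CPM; floors cover counting error only. Gene coordinates and lengths came from GENCODE M21 (GRCm38), matched by Ensembl ID for all 48 members.

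The same mouse number marks the same animal, so the numbers pair the samples: deviations of same-mouse EMCN+ and EMCN- libraries correlated at 0.165 to 0.223 (3 pairs), and those of different mice at -0.246 to 0.190 (9 pairs). Between EMCN+ and GMP libraries the range was -0.0606 to 0.0613 within a mouse and -0.172 to 0.16 across mice. Between EMCN- and GMP libraries it was 0.105 to 0.15 within a mouse and -0.168 to 0.0622 across mice. Blocked values stand beside results where they change a call. The members, gene lists and rule for named genes were chosen with earlier results of these data known. Named were the central genes of each group, each member called between EMCN+ and EMCN-, the 5 largest called changes per direction against GMPs, and up to 3 called genes with the smallest p from each wider list.

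Alternatives were other scalings and filters, DESeq2 1.42.0, mouse blocks and each library left out. Scaling by protein-coding totals and the corrections for length and GC content were added after seeing the data. Gene length was first taken as the median over all protein-coding transcripts. After those results were seen it was also taken from the APPRIS principal transcripts, because fragment transcripts set the first measure for genes such as Hsp90ab1, and both are reported.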

Additional observations from a re-analysis of the deposited data

Results flagged for a closer look

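One library stood apart from its group by Dixon's test. Xbp1 was at 45.6 CPM in EMCN+ replicate 4, where the nearest EMCN+ library was at 56.3 CPM and the highest at 58.3 CPM, so that the gap to the nearest library was 0.841 of the range, above the test's critical value. This was 1 of 94 groups of 4 libraries tested, and chance flags about 1 in 20.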

How the results depend on the processing

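The direction against GMPs depends on the scaling. With total-count scaling 19 members were higher and 16 lower in LT-HSCs, 17 and 17 in EMCN+ LT-HSCs alone, and 19 and 15 in EMCN- LT-HSCs alone. Shares of all genes called against GMPs under other scalings are not given here. Scaling by protein-coding totals, added after seeing the data, gave 11 higher in LT-HSCs, 10 in EMCN+ LT-HSCs, and 9 higher and 18 lower in EMCN- LT-HSCs. The corrections for length and GC content, also added after seeing the data, depend on which transcripts define a gene's length. With all coding transcripts 5 members were higher in LT-HSCs and in EMCN+ LT-HSCs, with and without a mouse block, and with principal transcripts 2 were higher in LT-HSCs, in EMCN+ LT-HSCs and in EMCN- LT-HSCs. Without a low-count filter 3 were higher in EMCN- LT-HSCs, and leaving out single libraries gave 2 to 5 there.

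Between EMCN+ and EMCN- LT-HSCs, 1 member was higher with the mouse block and 1 in the 6 paired libraries, and with block and length correction 2 were higher by all coding transcripts and 0 by principal transcripts. Lower were 0 with total-count scaling, 3 without the filter, 3 by DESeq2, 2 with the block, 8 in the 6 paired libraries, 0 under every length correction, and 0 to 2 without single libraries. Over all genes 293 were called, against 529 without the filter, 446 by DESeq2, 908 in the paired libraries, 192 and 150 with the corrections over all coding and principal transcripts, and 55 to 338 without single libraries, the lowest without EMCN- replicate 1.

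With total-count scaling 20 of the 47 log2 differences between LT-HSCs and GMPs changed sign: Canx 0.21, Dnajb9 0.42, Hspa4 0.69, Hsph1 0.66, Cct2, Cct3, Cct4, Cct5, Cct7 and Cct8 (0.18 to 0.43), Atf4 0.17, Atf6 0.26, Ern1 0.72, Herpud1 0.45, Hsf2 0.72, Hsp90aa1 0.42, Hsp90ab1 0.65, Hspa8 0.30, Hspa9 0.70 and Hspd1 0.15. With protein-coding totals 10 did: Cct2 0.02, Dnajb9 0.01, Hspa4 0.28, Hsph1 0.24, Ern1 0.30, Herpud1 0.03, Hsf2 0.31, Hsp90aa1 0.01, Hsp90ab1 0.24 and Hspa9 0.29. With the correction over all coding transcripts (and with the block) 8 (7) did: Cct2 0.20 (0.19), Cct8 at 0.00 without the block, Dnajb1 -0.10 (-0.11), Ern1 0.07 (0.02), Hsf1 -0.20 (-0.17), Hsp90aa1 0.16 (0.12), Hsp90ab1 0.43 (0.40) and Sel1l -0.44 (-0.45), and over principal transcripts 4 (3) did: Dnajb1 -0.03 (-0.03), Hsf1 -0.07 (-0.05), Sel1l -0.40 (-0.41) and, without the block, Hsf2 0.02. Leaving out single libraries gave -0.22 to 0.05 for Ern1, -0.02 to 0.18 for Hsf1, -0.16 to 0.00 for Hsf2 and -0.06 to 0.09 for Sel1l. With total-count scaling the median gene moved by 0.78, and the 20 members that changed sign there lay between -0.78 and 0 with TMM. Why the scalings differ, and the cause of the other changes, was not tested. Beyond these and the calls named in the report, the block changed no other call among the members between EMCN+ and EMCN- LT-HSCs or between LT-HSCs and GMPs.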
